A study of Caenorhabditis elegans with 2 samples.

Results

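UNC-3 peaks that lay outside protein-coding promoters made up 248 of the 754 reproducible peaks of the late embryo. A peak was counted when its summit, the base of highest signal, was outside the promoter window of every protein-coding transcription start site (TSS), 500 bp on the upstream side and 100 bp on the downstream side, and not within 200 bp of a tRNA, snoRNA or snRNA gene. The choice used position alone, not peak signal. The other reproducible peaks were 303 at promoters, 190 at those small RNA genes and 13 on the mitochondrial genome. Reproducible here means that the peak is on the authors' list thresholded by the irreproducible discovery rate (IDR), a measure of how well peak ranks agree between replicates. All 754 listed peaks were among the 754 strongest of the authors' list pooled from both replicates, so a single peak need not rank alike in each. The weakest member, nearest lev-10, overlapped peaks ranked 15064 in replicate 1 and 385 in replicate 2. Of the 248, 150 overlapped peaks among the 754 strongest of both replicates. Because some peaks overlapped each other, the 248 peaks formed 229 separate regions.

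The data are chromatin immunoprecipitation and sequencing (ChIP-seq) of 2 biological replicates of a single group of Caenorhabditis elegans. Whole hermaphrodite embryos of strain OP578, genotype unc-119(tm4063) III; wgIs578, were taken 4 h after synchronization by bleaching of eggs, a stage the labels call late embryonic. The wgIs578 insertion expresses UNC-3 fused at its C terminus to GFP and FLAG, chromatin was sonicated, and GFP was precipitated. The tagged protein comes from an added transgene, all cells of the embryo were pooled, and no second condition was measured, so comparisons run between classes of peaks and between summits and neighbouring sequence. A signal averaged over a whole embryo does not tell a site bound strongly in few cells from a site bound weakly in many.

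UNC-3 belongs to the COE proteins, transcription factors whose vertebrate relatives are called EBF. In motor neurons that use acetylcholine it acts as a terminal selector: it switches on and maintains the genes for making, packaging and releasing acetylcholine through a palindromic DNA element, the COE motif. COE proteins bind this element as dimers. In the compact worm genome much regulatory DNA lies close to gene starts, but introns and longer intergenic stretches also hold enhancers.

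The COE palindrome was searched as TCCCNNGGGA, which reads the same on both strands, within 100 bp of each summit. The sites below carry the arms that the comparisons turn on, and are examples from strong peaks with a palindrome and from peaks in genes of synaptic, cholinergic or signalling function, not a full set. Capitals mark the palindrome, and each sequence is the plus strand of ce11 (the WBcel235 assembly, from RefSeq), 5′ to 3′, with 15 bases on either side. The egl-27 site is at chrII:6838440-6838479, the C08G9.1 site at chrIV:7663169-7663208 and the tpa-1 site at chrIV:96206-96245, all in introns. The dmsr-7 site at chrV:5404125-5404164 and the ergi-2 site at chrX:15011716-15011755 are intergenic. The C46F11.6 intron holds a pair of palindromes, at chrIII:3668491-3668530 and chrIII:3668598-3668637. The snt-1 site at chrII:6812673-6812712, the unc-2 site at chrX:2728440-2728479, the unc-17 and cha-1 site at chrIV:3621911-3621950 and the tag-180 site at chrII:11328561-11328600 are intronic. The snt-3 site at chrV:1360405-1360444 is in coding sequence.
egl-27: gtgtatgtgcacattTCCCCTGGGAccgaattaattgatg
C08G9.1: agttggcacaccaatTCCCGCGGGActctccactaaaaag
dmsr-7: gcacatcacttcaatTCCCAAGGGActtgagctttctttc
ergi-2: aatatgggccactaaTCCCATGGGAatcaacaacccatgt
tpa-1: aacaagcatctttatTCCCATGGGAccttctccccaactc
C46F11.6, first site: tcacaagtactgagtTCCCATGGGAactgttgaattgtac
C46F11.6, second site: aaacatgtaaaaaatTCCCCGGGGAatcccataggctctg
snt-1: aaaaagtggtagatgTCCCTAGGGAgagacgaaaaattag
snt-3: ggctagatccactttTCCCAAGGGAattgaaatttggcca
unc-2: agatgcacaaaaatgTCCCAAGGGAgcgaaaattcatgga
unc-17 and cha-1: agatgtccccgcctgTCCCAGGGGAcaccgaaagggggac
tag-180: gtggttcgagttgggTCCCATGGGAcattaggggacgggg

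The strongest intronic peak, in mbl-1, held no exact palindrome but a single site with 1 mismatch, shown because it is near the highest signal among introns. It is at chrX:17003769-17003808, its substitution is T1A (positions counted from the first base of the palindrome), and its centre is at -32.5 bp from the summit. Capitals again mark the aligned 10 bases.
mbl-1: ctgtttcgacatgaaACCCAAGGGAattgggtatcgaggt

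A second sequence feature of these peaks was a GA repeat, searched as GAGAGA on both strands. The examples were chosen to show the repeat at the strongest non-promoter peak and at egl-10, unc-44 and pqn-41, whose peaks are described further on. Capitals mark the longest run, on the plus strand of ce11. The coordinates are those of the whole printed sequence, run and flanking bases together. The K12H4.5 sequence is at chrIII:8043924-8043963 and the egl-10 sequence at chrV:12465522-12465558, both intergenic. The unc-44 sequence is at chrIV:5977527-5977565 and the pqn-41 sequence at chrIII:1921377-1921412, both intronic. The centre of the run was at -24.5 bp from the summit for K12H4.5 and -15 bp for egl-10. It was farther off for unc-44, at 85 bp, and pqn-41, at 51.5 bp. The unc-44 sequence ends at the edge of the search window.
K12H4.5: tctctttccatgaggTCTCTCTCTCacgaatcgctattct
egl-10: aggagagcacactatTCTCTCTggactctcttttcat
unc-44: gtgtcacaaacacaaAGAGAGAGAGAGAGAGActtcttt
pqn-41: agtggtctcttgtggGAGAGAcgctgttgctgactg

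Non-promoter positions were less common among reproducible peaks than in the genome at large. Of the 551 nuclear IDR peaks away from small RNA genes, 248 were outside promoters (45.0%, exact 95% interval 40.8 to 49.3%). The same class held 77.8% of the 14456 pooled peaks that did not reach the IDR list, and 85.9% of genome positions taken every 200 bp. By signal, the non-promoter share was 38.7% in the strongest of 4 equal groups of IDR peaks, then 40.6%, 50% and 50.7% in the weakest.

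The peak signal is the strength that the authors' peak caller gave, on a scale not stated, and serves here only to rank and describe peaks. Among the non-promoter peaks it ran from 60.2 to 724.9 with a median of 77.3. Promoter peaks had a median of 84.3 and peaks at small RNA genes a median of 95.5. The strongest replicate peak overlapping each member had a median signal of 38.1 in replicate 1 (12.2 to 300.1) and 44.7 in replicate 2 (22.2 to 421.9). Replicate 2 was the higher in 171 of the 248 peaks (69.0%), beside 216 of 303 promoter peaks (71.3%) and 119 of 190 peaks at small RNA genes (62.6%). The lean to replicate 2 is thus not particular to these peaks, and whether the 2 replicate lists share a scale is not stated. Across peaks, the replicate signals had a Spearman rho of 0.42 and, on log2 values, a Pearson r of 0.61 (n = 248 peaks of the same 2 libraries, with overlapping peaks sharing a replicate peak, a description only). The plot of replicate signals shows a tight upper end and a broad cloud at low signal.

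**Figure D1:**
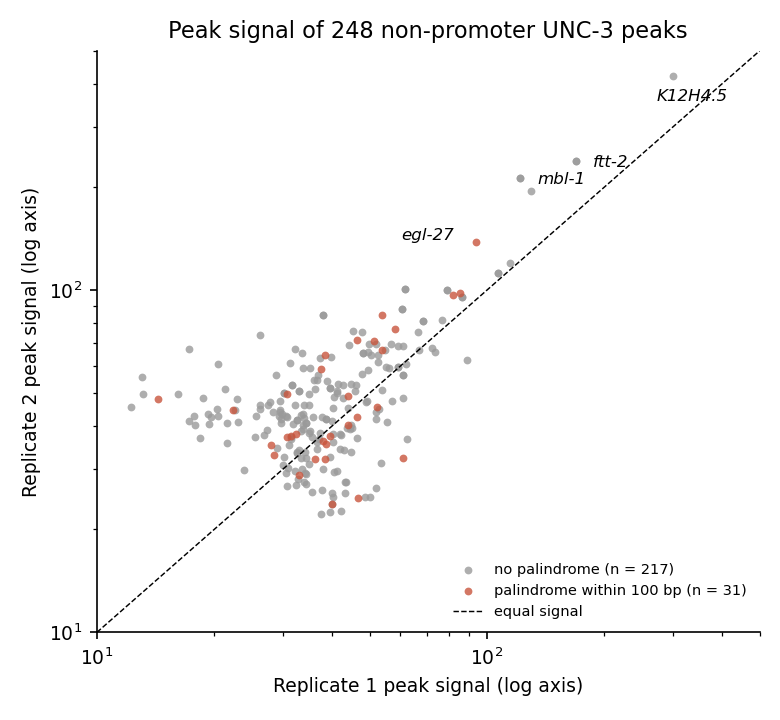
Signal of the strongest overlapping peak in replicate 1 (x axis) and replicate 2 (y axis), both log axes in the authors' units, for the 248 non-promoter peaks, with the 31 that hold a palindrome in red. The strongest peaks, near K12H4.5, ftt-2 and mbl-1, sit above the line of equal signal, as do 171 of all 248. The 31 peaks with a palindrome spread over most of the range.

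A peak was called present in both replicates when it overlapped, by at least 1 bp, a peak among the 754 strongest of each replicate. By that measure 150 of 248 non-promoter peaks were present in both (60.5%), beside 67.8% of all 754 IDR peaks. Of the promoter peaks, 206 of 303 were present in both (68.0%). The difference of -7.50 percentage points missed the threshold of 0.05 (two-sided Fisher's exact test, p = 0.0735, adjusted p = 0.0735 over the 8 comparisons of this report). When summits had to lie within 100 bp of each other the difference was -15.1 points with p = 0.000431 by the same exact test, and with 1508 peaks per replicate it was -6.38 points with p = 0.0142, so the call depends on how presence is defined.

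The strongest non-promoter peaks lay at genes of varied function. The leading one, 519 bp upstream of K12H4.5 at chrIII:8043746-8044176, had a signal of 724.9, second on the whole IDR list, with 300.1 in replicate 1 and 421.9 in replicate 2. It is just beyond the promoter limit and has a GA repeat but no palindrome. Next came a peak 643 bp upstream of ftt-2, which encodes a 14-3-3 protein, an adaptor that binds phosphorylated partners. Its signal was 405.3, with 168.8 and 238.7 in replicates 1 and 2, and an overlapping peak 202 bp away had 218.9. The second intron of mbl-1, the worm muscleblind gene for a splicing regulator, held a peak of 330.3, with 121.7 and 212.3 in the replicates. Intron 4 of M01F1.8 held a peak of 326.2, with 129.4 and 194.2; its summit was 980 bp upstream of the start of M01F1.9. In these 4 peaks replicate 2 was the higher, as it was in 171 of all 248.

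Further down, a peak of 232.1 with 114.3 and 119.8 in the replicates lay within 200 bp of the microRNA gene mir-51, where the nearest protein-coding start was that of hrg-5, a heme-responsive gene. The second intron of egl-27, which encodes a homologue of the metastasis-associated MTA chromatin proteins, held a peak of 229.5, with 93.9 and 138.2. Its palindrome was centred 25.5 bp from the summit. A peak of 216.6, with 107.0 and 112.0, lay 4761 bp upstream of cmd-1, the calmodulin gene, and within 200 bp of the long noncoding RNA gene linc-128. Intron 4 of let-526, the worm ARID1 subunit of the SWI/SNF chromatin remodeller, held a peak of 181.0, with 85.5 and 98.1 and a palindrome. Peaks of 179.5 upstream of lgc-26, a ligand-gated ion channel gene, and 179.1 in the second intron of C08G9.1 followed. The remaining ones among the 15 strongest were upstream of eel-1 (a HECT ubiquitin ligase, 178.0), in an intron of klp-6 (a kinesin, 161.9), downstream of the start of W02H3.3 (155.4) and upstream of C34C12.9 (153.3). All 15 were among the 754 strongest peaks of both replicates. Of them, 3 held an exact palindrome.

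Most non-promoter summits were intergenic. Of the 248, 142 were intergenic (57.3%), 93 were in introns of protein-coding genes (37.5%), 9 in untranslated exon sequence and 4 in coding sequence. Of the 428193 genome positions, spaced 200 bp apart, that met the same rule, 34.8% were intergenic, 35.5% intronic, 3.86% in untranslated exons and 25.8% in coding sequence. Coding sequence was thus the class with the largest gap between peaks and genome positions. Merging overlapping peaks gave 57.6% intergenic and 37.1% intronic regions. Signal was alike in both main classes, with a median of 77.6 for intergenic and 77.2 for intronic peaks.

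Intergenic summits were mostly upstream of their nearest gene. The nearest protein-coding TSS was a median of 1799 bp away, with 42 summits within 1000 bp, 36 from 1000 to 2000 bp, 52 from 2000 to 5000 bp and 12 at 5000 bp or more. Intergenic genome positions had a median of 2245 bp. Of the 142 summits, 114 were upstream of that TSS (80.3%, exact 95% interval 72.8 to 86.5%), beside 70.1% of intergenic positions. The farthest intergenic summit was 10573 bp downstream of the start of Y37A1B.7 with a signal of 91.5. A second peak of 103.8 near the same gene, at 9716 bp, lay within 200 bp of mir-52. The histogram of distances shows the pile of intergenic peaks just beyond the upstream promoter limit.

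**Figure D2:**
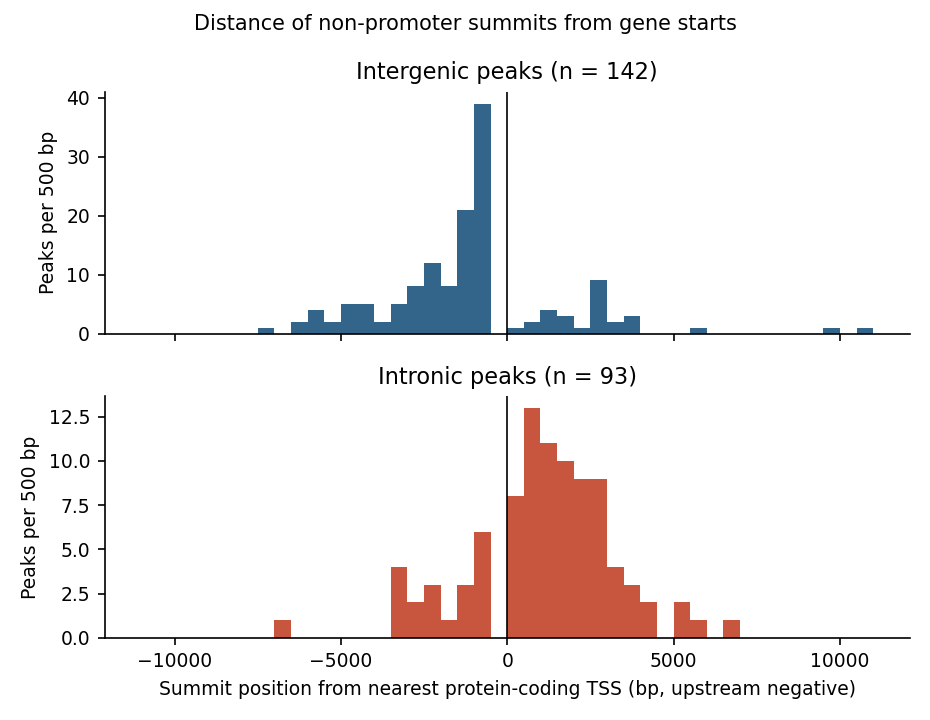
Position of each summit relative to the nearest protein-coding TSS (x axis, bp, upstream negative) in bins of 500 bp (y axis, number of peaks), for 142 intergenic peaks (upper panel) and 93 intronic peaks (lower panel). Intergenic peaks gather upstream of the nearest start. Intronic peaks lie mostly downstream of it, which a position inside a gene largely fixes. The gap next to 0 is the promoter window that the rule removes.

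The distance limits cut through a continuous range of positions. The members closest to the upstream limit were at -502 bp from F41H10.3 (signal 67.4) and -504 bp from eif-3.I (84.6), while promoter peaks at -496 bp from epn-1 (107.7) and -494 bp from ptrn-1 (100.5) were just within it. Downstream, the closest members were at 146 bp from the start of egl-30 (116.7) and 170 bp from that of sec-61.A (64.8), both in untranslated exon sequence. The closest promoter peaks on that side were at 41 bp from smu-1 (63.6) and ints-4 (63.01). No member lay between 200 and 295 bp of a tRNA, snoRNA or snRNA gene, and the farthest excluded peak was 173 bp from one.

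Intronic peaks lay mostly in introns longer than 1000 bp, and mostly in the first or second intron of their host. The 93 summits lay in 78 host genes, and for 86 summits the nearest TSS belonged to a gene that holds the summit (92.5%). The same share was not taken for intronic genome positions, so it is not read as a trait of these peaks. The intron held a median of 1692 bp (51 to 12691 bp), where intronic genome positions had a median of 906 bp. Introns longer than 1000 bp held 67 summits (72.0%, exact 95% interval 61.8 to 80.9%), beside 46.4% of intronic positions. The first intron held 33 summits (35.5%) and the first or second intron 60 (64.5%), beside 30.7% and 47.7% of positions. The share of the first intron alone was thus near that of genome positions. The longest was an intron of aakg-1, an AMP-activated kinase gamma subunit gene, with a peak of 75.0. The plot of intron lengths shows the shift over most of the range.

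**Figure D3:**
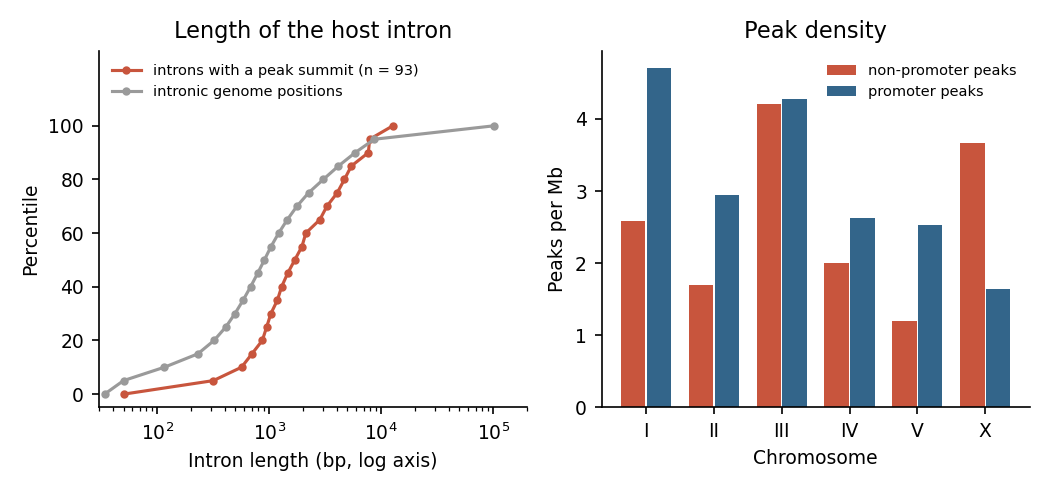
Left, length of the intron that holds each of the 93 intronic summits and of the introns that hold intronic genome positions (x axis, bp, log axis) against percentile (y axis). Right, non-promoter and promoter peaks per Mb (y axis) for each chromosome (x axis); the intron curve lies to the right of the genome curve up to about its upper end, and X has more non-promoter than promoter peaks per Mb.

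The COE palindrome was found at 31 of 248 non-promoter summits (12.5%, exact 95% interval 8.65 to 17.3%), beside 4.91% of all 754 IDR peaks. In the window 1000 bp to the lower-coordinate side it was found at 0 of 248, and 1 of 248 on the higher side. The summit against the lower flank gave p = 9.31e-10 (exact McNemar test, two-sided, adjusted p = 7.45e-09 over 8 comparisons). Promoter peaks held it at 6 of 303 summits (1.98%). The difference of 10.5 percentage points had p = 1.19e-06 (Fisher's exact test, two-sided, odds ratio 7.07, adjusted p = 3.16e-06). That palindromes are found at reproducible summits was already known from these data when the peaks were divided, so the comparison is not independent evidence. Windows of the same length placed every 1000 bp along the genome held it in 0.0698%, and the nuclear genome held 390 copies in all.

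Allowing up to 1 mismatch, 61 non-promoter summits had a site (24.6%) against 8 lower flanks (3.23%), and 21 promoter summits had one (6.93%). Palindromes with the same letters in another order, CTCCNNGGAG, CCTCNNGAGG and CCCTNNAGGG, were found at 0, 1 and 0 non-promoter summits. The centre of the palindrome was within 50 bp of the summit in 27 of 31 peaks, at a median of 29.5 bp. Peaks with and without it had similar signals, with medians of 78.5 and 77.2. The base composition differed, with a median GC of 39.8% around summits with a palindrome and 46.8% around those without.

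**Figure D4:**
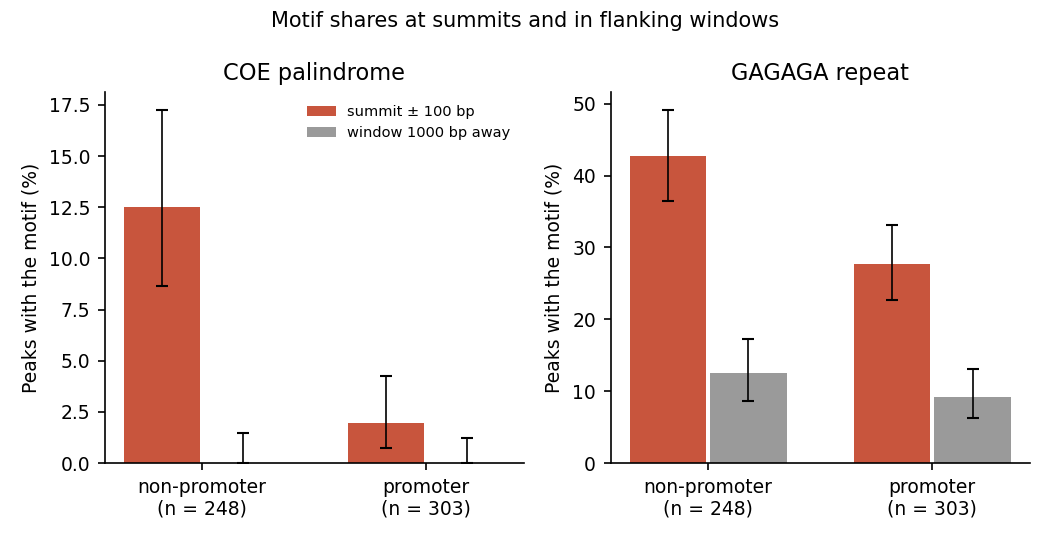
Share of peaks (y axis, %) with the COE palindrome (left) or a GAGAGA repeat (right) within 100 bp of the summit (red) and in the window 1000 bp to the lower-coordinate side (grey), for 248 non-promoter and 303 promoter peaks, with exact 95% intervals. The palindrome share is 12.5% at non-promoter and 1.98% at promoter summits and 0 in both sets of flanks, and the GAGAGA share is higher at summits than in flanks in both classes.

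Among the non-promoter peaks, the palindrome was in 17 of 93 intronic summits (18.3%) and 12 of 142 intergenic ones (8.45%). The difference of 9.83 points had p = 0.0409 (Fisher's exact test, two-sided, adjusted p = 0.0468 over 8 comparisons). It lost the threshold when overlapping peaks were merged (9.73 points, p = 0.0602 by the same exact test) and under the 4 other alternatives listed in the closing section, so the intron share is not firmly set apart. The other 2 palindromes were in coding sequence, of snt-3 and T07F12.2.

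The intronic hosts of a palindrome included several genes of nerve terminals. The synaptotagmin gene snt-1, for the calcium sensor of vesicle release, had a peak of 95.2 in its second intron, with 37.6 and 58.8 in replicates 1 and 2, and its relative snt-3 had 120.0 in coding sequence, with 53.7 and 66.7. The gene unc-2, for the pore subunit of the presynaptic calcium channel, had 78.5 in its second intron, with 38.4 and 32.1. The gene tag-180, for an accessory subunit of such channels, had 60.3 in its first intron, with 43.99 and 40.2. In the locus where unc-17 (the vesicular acetylcholine transporter) and cha-1 (choline acetyltransferase, which makes acetylcholine) share a start, the peak had 75.5, with 30.7 and 49.6, 2774 bp from the nearest annotated start. The 2 replicates were of the same order in these 5 peaks, with replicate 2 the higher in 3.

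Signalling and chromatin genes also hosted palindromes. The protein kinase C gene tpa-1 had 119.0 in its second intron, with 51.4 and 70.9 in the replicates. Besides egl-27 and let-526, lin-59, a histone methyltransferase gene of the ASH1 type, had 99.96 in its second intron, with 38.5 and 64.4. The C46F11.6 intron, with its pair of palindromes, had 117.2, with 46.5 and 71.4. The other intronic hosts were C08G9.1, hecw-1, F15G9.5, F58H1.5, zfh-2 (a zinc finger homeobox gene), gab-1, C53D5.5 and lgc-31, with signals from 61.2 for lgc-31 to 179.1 for C08G9.1. The F15G9.5 peak also lies inside the longer gene him-4, for the extracellular matrix protein hemicentin.

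The 12 intergenic palindromes lay from 599 to 4453 bp from the nearest start. The strongest, 1177 bp upstream of dmsr-7, a neuropeptide receptor gene of the myosuppressin receptor type, had 137.8, with 53.7 and 84.4 in the replicates. The peak 4453 bp upstream of ergi-2 had 134.0, with 58.1 and 77.2, and that 1228 bp upstream of rpy-1, the worm rapsyn gene, had 96.9, with 52.1 and 45.7. In vertebrates, rapsyn clusters acetylcholine receptors at the neuromuscular junction. The other nearest genes were gly-2, T23F2.3, Y49G5A.1, C13A2.12, C02F4.4, wht-7, ZK757.2, F47D12.3 and elt-1 (a GATA factor of the epidermis), with signals from 66.6 for elt-1 to 94.3 for gly-2.

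**Figure D5:**
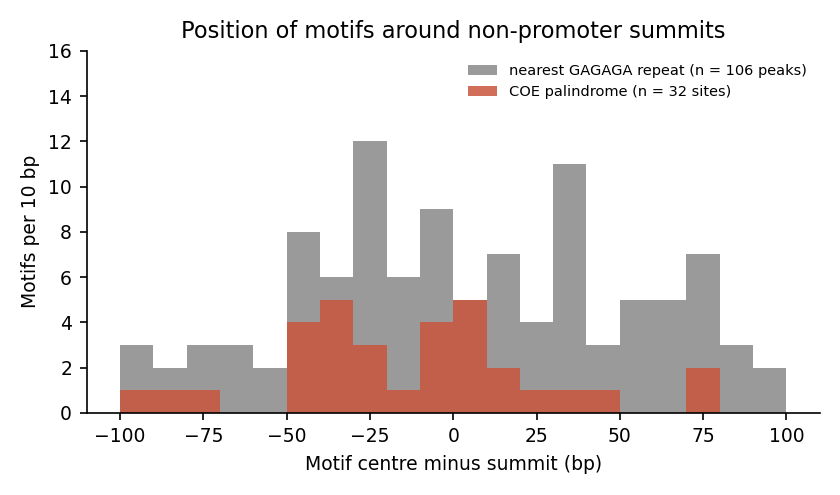
Distance of the motif centre from the summit (x axis, bp) in bins of 10 bp (y axis, number of motifs), for the 32 exact palindromes of 31 non-promoter peaks and the nearest GAGAGA repeat of 106 peaks. Palindromes gather within 50 bp of the summit and GAGAGA repeats spread more widely.

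The 2 bases between the palindrome arms varied. Read so that a spacer and its reverse complement count as the same, 8 of 32 sites had AA, 7 AT, 5 CG and 4 TA. TA made up 12.5% of the sites and 3.08% of the 390 copies in the genome, and AA 25% and 16.9%. AC and CA were not found among the 32, though they made up 9.74% and 11.5% of the copies in the genome. Reading each arm outward from the palindrome on its own strand, so that the base left of the site on the printed strand counts as its complement, the first base outside was A in 27 and C in 23 of 64 arms. These are descriptions of 32 sites and were not tested.

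GAGAGA repeats were more common than palindromes. They were found at 106 of 248 non-promoter summits (42.7%, exact 95% interval 36.5 to 49.2%), beside 33.2% of all 741 nuclear IDR peaks and 9.93% of genome windows of the same length. The lower flanks had 31 (12.5%), and the exact McNemar test gave p = 2.26e-13 (adjusted p = 1.81e-12 over a family of 8 motifs), with 93 peaks positive only at the summit and 18 only in the flank. Promoter peaks had it at 84 of 303 summits (27.7%) and 28 of their lower flanks (9.24%). The difference between the classes was 15.02 points (Fisher's exact test, two-sided, p = 0.000303, adjusted p = 0.000404 over 8 comparisons), picked with the data in view. It did not pass with a promoter window from 2000 bp upstream to 500 bp downstream (5.85 points, p = 0.224 by the same exact test) or among IDR peaks above the median signal (9.04 points, p = 0.15), and it was 9.86 points without replicate 2 (p = 0.014, exact).

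The repeats were short, with a median run of 7 bases and 10 or more bases in 21 peaks; the longest, of 31 bases, was in the intergenic peak nearest wht-7. They were at 67 of 142 intergenic (47.2%) and 34 of 93 intronic summits (36.6%). Repeats and palindromes seldom coincided: 3 of 31 peaks with a palindrome had a repeat (9.68%), beside 47.5% of the 217 without one. The difference of -37.8 points had p = 3.11e-05 (Fisher's exact test, two-sided, adjusted p = 4.97e-05 over 8 comparisons), likewise picked with the data in view. The 3 peaks with both motifs were those of ergi-2, snt-1 and wht-7. Their share of 9.68% was near the 12.5% of lower flanks of all 248 peaks that had a repeat. Median GC was 39.8% around summits with a palindrome and 46.8% around those without, and its part in the difference was not tested. Neither motif was found in 114 of the 248 summits (46.0%).

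Summits were richer in G and C than their surroundings, with a median GC of 45.8% within 100 bp against 35.6% in the flanks; promoter peaks had 41.8% and 37.6%. That difference moves with each motif comparison between summit and flank, and its part in them was not tested. Of the other motifs, the homeodomain core TAATTA was at 6 summits and 17 lower flanks (exact McNemar test, p = 0.0347, adjusted p = 0.139) and at 31 higher flanks (adjusted p = 0.000165 by the same exact test), fewer at summits in both. The GATA motif AGATAA was at 26 summits and 22 lower flanks. It, the E-box CACGTG and the AP-1 motif (searched as TGANTCA) missed the threshold against either flank, with adjusted p from 0.263 to 1 (exact McNemar test).

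Non-promoter peaks lay on X more often than promoter peaks did. X held 65 of 248 (26.2%, exact 95% interval 20.8 to 32.1%), beside 21.5% of the 741 nuclear IDR peaks, and 29 of 303 promoter peaks (9.57%). The difference of 16.6 points had p = 3.58e-07 (Fisher's exact test, two-sided, odds ratio 3.36, adjusted p = 1.43e-06 over 8 comparisons), chosen after the data were seen. Without replicate 2 it was 9.85 points (p = 0.00236 by the same exact test). X held 18.2% of non-promoter and 14.4% of promoter genome positions. Of the peaks at small RNA genes, 65 of 190 were on X (34.2%), a higher share than that of non-promoter peaks. A high X share is thus not particular to non-promoter peaks, and promoter peaks were the class with the low share. Per Mb, non-promoter peaks were densest on III (4.21) and X (3.67) and sparsest on V (1.19). The X share was 30.3% of intergenic and 20.4% of intronic peaks, and 5 of 31 peaks with a palindrome were on X.

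Other noncoding RNA genes, which the rule does not exclude, were close to many of the peaks. Genes annotated as ncRNA lay within 200 bp of 58 of 248 summits (23.4%), beside 25.6% of all 741 nuclear IDR peaks, 3.16% of non-promoter genome positions and 30 of 303 promoter peaks (9.90%). The difference from promoter peaks was 13.5 points (Fisher's exact test, two-sided, p = 2.15e-05, adjusted p = 4.30e-05 over 8 comparisons), chosen after the data were seen. The share is near that of all nuclear IDR peaks, of which the peaks at small RNA genes are a part. They include rpr-1, the RNA of RNase P, inside the first intron of ints-8 (131.6), and the signal recognition particle RNA genes srpr-2.2 (161.9, the klp-6 intron peak given above), srpr-1.2 (86.9) and srpr-2.1 (81.8). Some peaks named in this report by a protein-coding gene also had an ncRNA gene within 200 bp, such as those of ftt-2 (405.3), mbl-1 (330.3), C08G9.1 (179.1) and dmsr-7 (137.8). MicroRNA genes lay within 200 bp of 4 summits: mir-51 (232.1), mir-52 (103.8), mir-90 in an intron of K01F9.2 (93.4) and mir-8209 (60.8).

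Some genes had several separate peaks. In all, 13 genes hosted or were nearest to 2 or more regions, and let-526 and pqn-41 to 3 each. In pqn-41, which encodes a glutamine-rich protein, the 4 peaks (139.4, 107.9, 92.0 and 63.8) were all in the first intron, of 7776 bp, and 3 of them had GAGAGA repeats. In let-526 the 4 peaks were in introns 1, 3 and 4 with signals from 61.7 to 181.0, and only the strongest had a palindrome. The mbl-1 peaks lay up to 15462 bp apart, the weakest having 65.7, with 13.1 in replicate 1 and 55.7 in replicate 2.

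Gene lists were compared with the 226 of 19985 protein-coding genes (1.13%) that host a non-promoter summit or are nearest to one. These 226 genes had a median length of 4847 bp, against 2026 bp for all genes, and most lists also hold long genes, so the counts are descriptions without a test. Acetylcholine synthesis, transport and breakdown had 2 of 7 genes, unc-17 and cha-1, which share 1 peak. Acetylcholine receptors and their assembly factors had 1 of 28, lev-10, a receptor clustering protein, whose peak 1252 bp upstream was the weakest of the IDR list at 60.2, with 12.2 and 45.5 in replicates 1 and 2. Outside that list, and named with their values in view, rpy-1 had the peak of 96.9 given above and lgc-46, for an acetylcholine-gated channel, had 64.005 in an intron, with 21.6 and 40.9 in the replicates. Synaptic vesicle and active zone genes had 5 of 27: snt-1, snt-3, unc-104 (the kinesin that carries vesicle precursors, 71.2 and 62.4 at 2 regions), dyn-1 (dynamin, 64.2) and unc-31 (the dense-core vesicle priming factor CAPS, 63.1). In replicates 1 and 2, dyn-1 had 17.2 and 41.4, and unc-31 had 39.99 and 25.5. The unc-104 regions had 36.6 and 36.1, and 30.6 and 29.3. Calcium and sodium leak channel genes had 4 of 11: unc-2, tag-180, unc-79 (120.4) and nlf-1 (67.4), the last 2 for proteins that act with the sodium leak channel. In replicates 1 and 2, unc-79 had 52.5 and 64.7, and nlf-1 had 16.2 and 49.7.

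The G protein, cAMP and PKC list had 8 of 23 genes (34.8%; median gene length 7554 bp). The peak 2547 bp upstream of egl-10, a regulator of G protein signalling, had 130.4, with 56.7 and 69.6 in the replicates. The G alpha q gene egl-30 had overlapping peaks of 116.7 and 84.6 in untranslated exon sequence, over a single peak of 38.1 in replicate 1 and 84.6 in replicate 2. The G beta gene gpb-1 had 103.1 upstream and 89.3 in its first intron. The others were tpa-1, kin-2 (the regulatory subunit of protein kinase A, 98.9), dgk-1 (diacylglycerol kinase, 79.4), pkc-1 (72.4) and rho-1 (69.5). Apart from tpa-1, none of these peaks had a palindrome.

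Chromatin remodelling and modification genes had 5 of 28: egl-27, let-526 and lin-59, all with a palindrome, and pbrm-1 (77.6) and cbp-1 (a CBP/p300 acetyltransferase, 75.6) without. Axon guidance and adhesion genes had 2 of 27, unc-44 (the neuronal ankyrin, 118.7 and 74.1) and nlg-1 (neuroligin, 68.6). RNA-binding proteins had 2 of 20, mbl-1 and unc-75 (94.7). Motor neuron transcription factors had 1 of 19, unc-62 (66.7), in untranslated exon sequence. None of the 17 listed potassium channel genes had a peak; twk-13, a potassium channel gene outside that list, named here after its values were seen, had 72.0 in its second intron, with 41.4 and 29.6 in the replicates. The list of homeobox and bHLH factors had 0 of 33, but it does not hold every such gene: zfh-2 is outside it, and the homeobox gene unc-62 is counted with the motor neuron factors. Cytosolic ribosomal proteins, short genes with a median of 753.5 bp, had 1 of 76, rps-25, whose peak (62.4) was 5574 bp upstream.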

How the data were processed

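The authors deposited peak lists in narrowPeak layout for ce10 and ce11; per the file headers, replicate and pooled lists hold peaks with background as input to IDR, and the thresholded list was derived from them. The value used is the peak caller's signal, as the authors deposited it, whose scale no source used here states. The aligner, the caller and the threshold of the IDR are likewise not given in the sources used here; depth is unknown, and the control was not analysed here. The ce10 lists were not used. The lists hold 754 (IDR), 15515 (pooled), 20517 (replicate 1) and 21474 (replicate 2) peaks.

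Summits were placed on ce11 with Ensembl release 115 genes and 29326 protein-coding TSSs, in coordinates counted from 1; coding came before untranslated exon, intron and intergenic. Motifs were searched on both strands within 100 bp of the summit and in windows centred 1000 bp away. Genome positions every 200 bp, and windows every 1000 bp, served as description only. Tests were exact McNemar tests between summit and flank and two-sided Fisher's exact tests between classes (scipy 1.17.1), with Benjamini-Hochberg adjustment over 8 comparisons, 4 of them chosen after the data were seen, and over 8 motifs. Intervals are exact Clopper-Pearson at 95% and cover counting error only. Overlapping peaks share bases and are not independent. The replicates form 1 group, called biological replicates in the labels; peaks are not replicates of a condition. The search was checked by planting the exact palindrome in flanking windows that held none, and the exact tests were run on the outcome. This check shows that the code finds planted sites, and it does not measure the error rate of the tests. Named genes are those hosting or nearest to the 15 strongest peaks, peaks with a palindrome, 3 or more separate regions, peaks closest to a limit, or listed in 1 of 12 gene lists; miRNA, ncRNA, extreme-distance and repeat examples were named after their values were seen. The members and lists were chosen with earlier results of these data known. Of the listed genes, unc-74, nca-1, mab-18 and efn-1 did not match a symbol in the annotation.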

Additional observations from a re-analysis of the deposited data

How the results depend on the processing

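Of 84 alternative values for 10 results, none turned direction, 67 kept their call or stayed near the main value, and the rest follow. The number of non-promoter peaks was 147 with promoters from 2000 bp upstream to 500 bp downstream, 405 without the small RNA exclusion and 96 among IDR peaks above the median signal. The intronic share was 45.6% with the wide window. The median signal was 84.0 without the small RNA exclusion. The higher palindrome share of intronic peaks missed the threshold (Fisher's exact test) with promoters of 1000 bp (10.8 points, p = 0.0581), without the small RNA exclusion (4.55, p = 0.119), with merged peaks (9.73, p = 0.0602), above the median signal (12.7, p = 0.126) and without replicate 2 (6.25, p = 0.142). With the flank on the higher side 2 motifs passed, not 1. Presence in both replicates differed from promoters with summits within 100 bp (-15.1 points) and with 1508 peaks per replicate (-6.38 points, exact p = 0.0142). The GAGAGA difference missed it with the wide window (5.85 points) and above the median signal (9.04 points, exact p = 0.15).

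Each replicate alone, by its strongest 754 peaks, gave 268 to 270 non-promoter peaks, an intronic share of 39.6 to 40%, a median signal of 37.4 to 42.96, and 1 motif passing. Percentage point differences ran from 9.63 to 10.1 for the palindrome against flanks, 7.91 to 8.75 against promoters, 6.25 to 8.47 for introns against intergenic peaks, 9.86 to 13.5 for GAGAGA and 9.85 to 13.8 for X. Presence in both replicates has no value for 1 replicate. Instead, the 248 and 303 peaks of the IDR list were compared by overlap with the 754 strongest peaks of 1 replicate. The difference was -1.24 points for replicate 1 and -4.98 points for replicate 2. No paired analysis was possible because the 2 libraries belong to 1 group. Depth is unknown, the signal scale is not given and no control was analysed, so signal was read as rank only and how depth limits the number of peaks was not tested.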
